A study of Mus musculus with 13 samples.

Results

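The meningeal border spots were the 60 spots in each of 2 mouse brain sections chosen by the highest summed level of Myoc, Mgp, Igf2, Gjb2 and Slc13a3, genes known from the meninges and the tissue beneath them. They made up 120 of 1973 spots, and 1966 of the 1973 had the total of at least 1000 counts that the selection required. The levels of the 5 selecting genes chose the spots, so these genes were left out of every result, and their values below are a description only. Levels are given in counts scaled to a total of 1000000 (CPM), that is, the summed count of a gene over the summed count of all genes in the same spots, times 1000000. All other spots of the same section, 960 and 886 of them, served as the comparison.

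The study profiled the retrosplenial cortex of the mouse, a cortical area at the midline. The brain sections came from wild-type (WT) animals, were cut at 10 µm from flash-frozen brains, placed on Visium slides (a grid of spots that capture RNA from the tissue above them) and stained for NeuN, a neuronal protein, and DAPI, a DNA dye. A separate set of 11 samples held neurons dissociated from microdissected retrosplenial cortex of B6 WT mice, 765 cells from 3 animals. The labels give neither sex, age nor animal for the sections, and the column names (suffix 4 and 8) could not be matched to the labelled sample numbers, so the sections are called S4 and S8. Nothing states that the sections come from separate animals, so p-values cannot be taken to measure the spread between animals. They rest on counting error and on a spread between these 2 sections that was pooled over all genes.

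The meninges wrap the brain in layers of connective tissue. The innermost layers, the pia and the arachnoid, hold fibroblasts that lay down collagen, carry solutes across the barrier, make prostaglandin D2 and retinoic acid, and share the space with arteries, veins and resident macrophages. Beneath the pia, astrocyte endfeet rich in Aqp4 and Gfap form the glia limitans, and cortical layer 1 lies below it.

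A Visium spot is wider than the pia and can hold parts of several cells, so a border spot is a small region and not a cell type. Spot positions were not used, so the border is defined by the 5 selecting genes and was not checked against the place of the spots. Among the selecting genes, the border spots of S4 reached 231 CPM for Mgp, 169 CPM for Igf2, 90.03 CPM for Gjb2, 87.2 CPM for Myoc and 39.4 CPM for Slc13a3. In S8 the same genes reached 263, 141, 33.6, 104 and 52.0 CPM. The selection rested on few counts, and 21 of the 60 spots in S4 and 31 in S8 had counts of 1 selecting gene only. A spot had 1 to 18 counts of the 5 genes in S4, with a median of 3, and 1 to 14 in S8, with a median of 2, and 25 and 41 of the 60 spots had at most 2. The last spot inside the selection had a score of 268.49 CPM in S4 and 221.31 CPM in S8, the first spot outside had 268.35 and 221.26 CPM, and each of these 4 spots held 2 counts of the selecting genes. In the other spots, 756 of 960 in S4 and 740 of 886 in S8 held none.

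Border spots held fewer counts than the rest. The median total was 5242.5 counts in S4 and 5221 in S8 at the border, against 8366 and 6781.5 in the other spots, and the 4 sums tested held 355438 and 326992 counts at the border and 8080263 and 6059100 in the other spots. Mitochondrial transcripts took 14.03% and 12.3% of the counts at the border, against 10.8% and 9.16% elsewhere. A score in CPM favours spots with a small total, and when raw counts chose the spots, 55 genes passed as higher in place of 199. The sections shared 162 spot barcodes, none of them among the border spots, and the barcodes are read within each section. The part of depth and of the mitochondrial share in the results below was not tested beyond the alternatives named.

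The spots were compared by edgeR's quasi-likelihood test on 4 sums, border and other in each section, and both sums of a section were kept together as a block. Calls required an adjusted p (Benjamini-Hochberg) below 0.05 together with a log2 difference of 1 or more in either direction. Of 12115 genes tested, 199 were called higher at the border (1.64%) and 8 lower (0.066%), together 1.71%. Counts of genes called higher by list below stand beside that 1.64%. Over the 20 alternatives that share ran from 0.451% to 1.77%. The 24 lists hold 354 entries but 324 distinct genes, so some calls are counted in several lists. Igfbp2 and Aldh1a2, for example, are on the leptomeningeal list too, and Id3 is on the BMP and the astrocyte list. An unadjusted edgeR p under 0.05 was reached by 882 of the 12115 genes in the higher direction and by 632 in the lower. The filter on low counts used the same 4 sums. A gene scarce in the other spots, such as Ogn, Slc13a4 or Aldh1a2, could thus enter the test only through its border level, which favours a call as higher. In these sums, fewer cells of a type and less RNA per cell cannot be told apart. The test pooled the spread over all genes, so a gene whose sections disagreed could still pass, and the level in each section is therefore given first. Of the 50 genes called in this comparison that the naming rule chose, 24 were called under each of 20 alternatives.

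**Figure D1:**
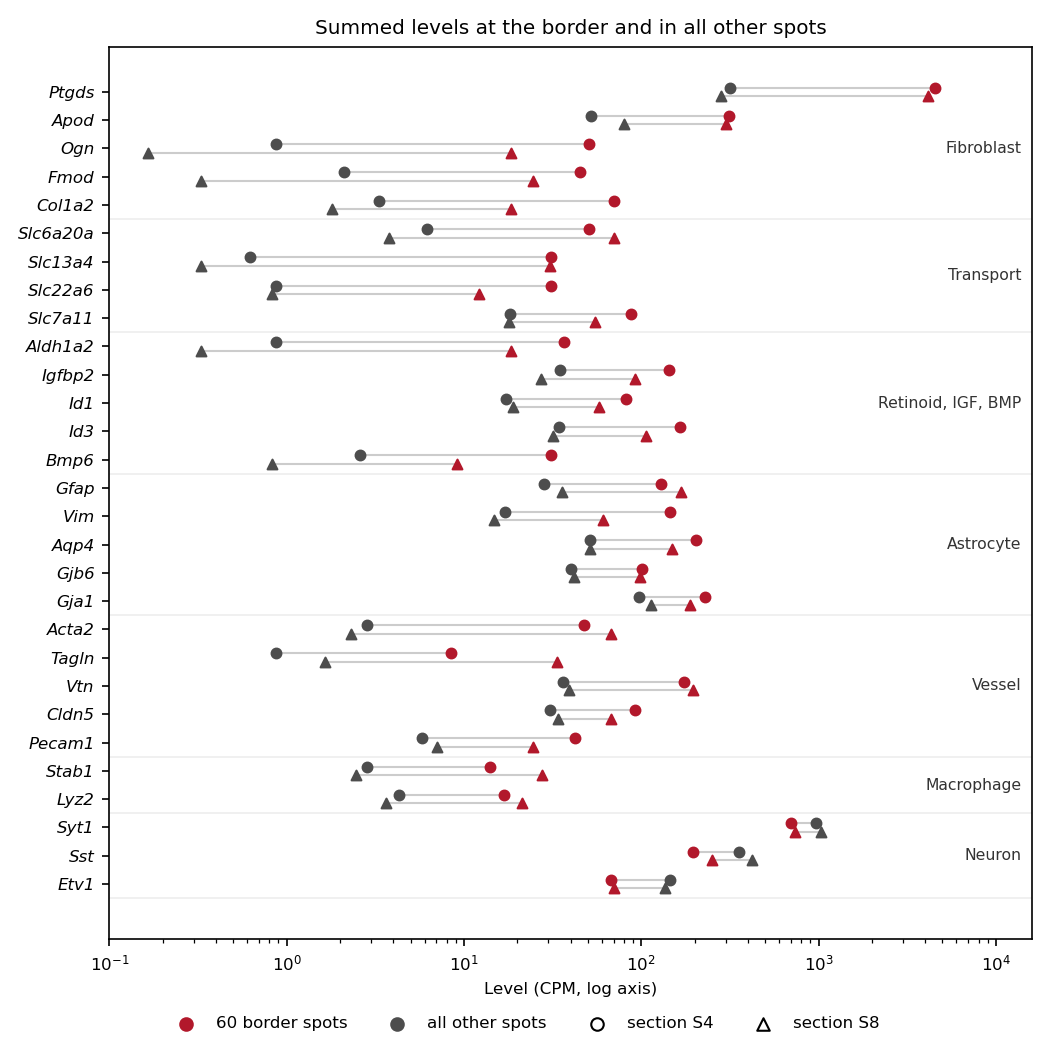
Level of selected genes in CPM (log axis) summed over the 60 border spots (red) and over all other spots (grey), circles for section S4 and triangles for S8. Ptgds stood at 4558 and 4138 CPM at the border against 316 and 284 CPM elsewhere, and the 3 neuronal genes at the bottom lay lower at the border in both sections.

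The label was set beside leptomeningeal fibroblast genes that took no part in the selection. Of 26 such genes, 23 passed the filter on low counts and 22 of those were called higher at the border, against 1.64% of all genes tested, and none lower. Their median log2 difference was 3.43, against -0.01 over all genes. Their summed level was 5708 CPM at the border of S4 against 502 CPM in the other spots, and 5064 against 464 CPM in S8. Ptgds alone made up 79.8% and 81.7% of the list's border counts, and the other 25 genes summed to 1151 and 927 CPM against 186 and 180.4 CPM. Without the filter on low counts, 20 of the 26 were called higher, against 0.685% of 19132 genes. The list was chosen with earlier results of these data known. Its genes were read in the same spots as the selecting genes, so they are not independent of each other. The list is therefore no independent check of the label.

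Ptgds, the prostaglandin D2 synthase secreted by the leptomeninges, was the most abundant of them. At the border it stood at 4558 CPM in S4 and 4138 CPM in S8, and elsewhere at 316 and 284 CPM. Both border values lay far above both others (log2 fold change 3.90, SE 0.12, edgeR adjusted p = 5.27e-234). Errors after ± are SEs of the fit throughout. Single border spots ran from 0 to 23249 CPM in S4 with a median of 2170 CPM, and from 0 to 25560 CPM in S8 with a median of 1241 CPM. Counts of Ptgds were present in 56 of 60 and 54 of 60 border spots. Among the other spots the median was 180.8 CPM in S4 and 157 CPM in S8, with a highest spot of 16756 and 10815 CPM, so single spots of the groups overlapped.

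Apod, a secreted lipid carrier, stood at 312 and 303 CPM at the border against 52.1 and 79.5 CPM elsewhere (log2 fold change 2.30 ± 0.15, edgeR adjusted p = 5.21e-46). The sections agreed in direction, with the larger gap in S4. Igfbp2, which binds insulin-like growth factors, stood at 143 and 91.7 CPM against 34.8 and 27.2 CPM (log2 fold change 1.97 ± 0.23, edgeR adjusted p = 1.51e-15).

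Several fibroblast genes were scarce in the other spots. Ogn, a small proteoglycan, had 18 and 6 counts in the border spots and 7 and 1 in all other spots, or 50.6 and 18.3 CPM against 0.866 and 0.165 CPM. Its fitted log2 fold change was 6.003 ± 0.66, the largest of the named genes that were called, on 24 border counts in all. Fmod, fibromodulin, had 16 and 8 counts against 17 and 2 (log2 fold change 4.81 ± 0.58). Serping1, the C1 inhibitor, had 10 and 10 counts against 8 and 3, and the transcription factor gene Foxc1, needed for meningeal development, had 11 and 11 counts against 28 and 16 (log2 fold change 3.42). These low counts came from few spots: Ogn was seen in 15 and 4 of the 60 border spots.

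The arachnoid barrier list holds genes of the tight cell layer above the pia. None of its 6 genes tested, of 10 listed, was called in either direction by edgeR or by DESeq2, 1 had an unadjusted edgeR p under 0.05, and 2 of the 10 had no count in the border spots of either section. Slc22a8 had 14.1 and 18.3 CPM at the border against 3.84 and 6.44 CPM, with an edgeR adjusted p of 0.116. Cldn11, which myelin also carries, stood at 95.7 and 147 CPM against 89.0 and 108 CPM. Under 4 of the 20 alternatives (30 spots, equal weights, and Myoc or Mgp left out of the score) 1 gene of this list was called higher. Dpp4, with 3 and 2 border counts, lay higher at the border in both sections. Slc16a11, with 3 and 9, lay lower in S4 and higher in S8. At such low counts the test could not decide whether arachnoid barrier genes differed, so the list says nothing for or against the label.

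Matrix genes were among the called genes. Of 28 fibrillar collagen and matrix genes, 21 were tested and 12 were called higher (6 to 14 over the 20 alternatives). Ogn, Fmod, Dcn, Lum, Col1a1, Col1a2 and Col3a1 are also on the leptomeningeal list, so their calls are not separate from those above. The share over all genes tested was 1.64%, and the list's median log2 difference was 1.68. Col1a2, a chain of type I collagen, stood at 70.3 and 18.3 CPM at the border against 3.34 and 1.82 CPM, higher at the border of S4 than of S8, yet above the other spots in both (log2 fold change 4.14 ± 0.48, edgeR adjusted p = 1.95e-15). Fn1, fibronectin, stood at 90.03 and 48.9 CPM against 13.99 and 14.9 CPM (log2 fold change 2.33 ± 0.30). Dcn, decorin, was called with a smaller difference, 84.4 and 42.8 CPM against 27.7 and 18.3 CPM (log2 fold change 1.52).

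Of 16 basement membrane genes, 12 were tested and 3 were called higher (0 to 3 over the 20 alternatives), with a median of 0.56. Lamb2, a laminin chain found in vessel walls and at the pial surface, stood at 33.8 and 36.7 CPM against 9.16 and 10.4 CPM (log2 fold change 1.89 ± 0.41, edgeR adjusted p = 0.000425). Lama2 and Hspg2 were also called, on 12 and 9 border counts, and lost the call under 8 and 10 of the 20 alternatives. Col15a1 had 7 border counts and was not called (edgeR adjusted p = 0.119).

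Solute carriers that move amino acids, organic anions and sulfate across the leptomeninges were called in part, 6 of 13 tested of 17 listed (4 to 7 over the 20 alternatives), with a median of 1.71. Slc6a20a, a transporter of proline and related amino acids, stood at 50.6 and 70.3 CPM against 6.19 and 3.796 CPM (log2 fold change 3.61 ± 0.38, edgeR adjusted p = 4.61e-18). Of the 4 carriers named here, it alone had a higher border level in S8 than in S4. Slc6a20a, Slc13a4, Slc22a6 and Slc6a13 are also on the leptomeningeal list. Slc7a11, the cystine and glutamate exchanger, stood at 87.2 and 55.0 CPM against 18.3 and 17.99 CPM (log2 fold change 2.03 ± 0.29). Slc13a4, a sulfate carrier, had 11 and 10 counts at the border and 5 and 2 in all other spots, or 30.9 and 30.6 CPM against 0.619 and 0.330 CPM. Slc22a6, an organic anion carrier, had 11 and 4 counts against 7 and 5 and lost its call when the border was limited to spots with at least 5 selecting counts (edgeR adjusted p = 0.243).

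**Figure D2:**
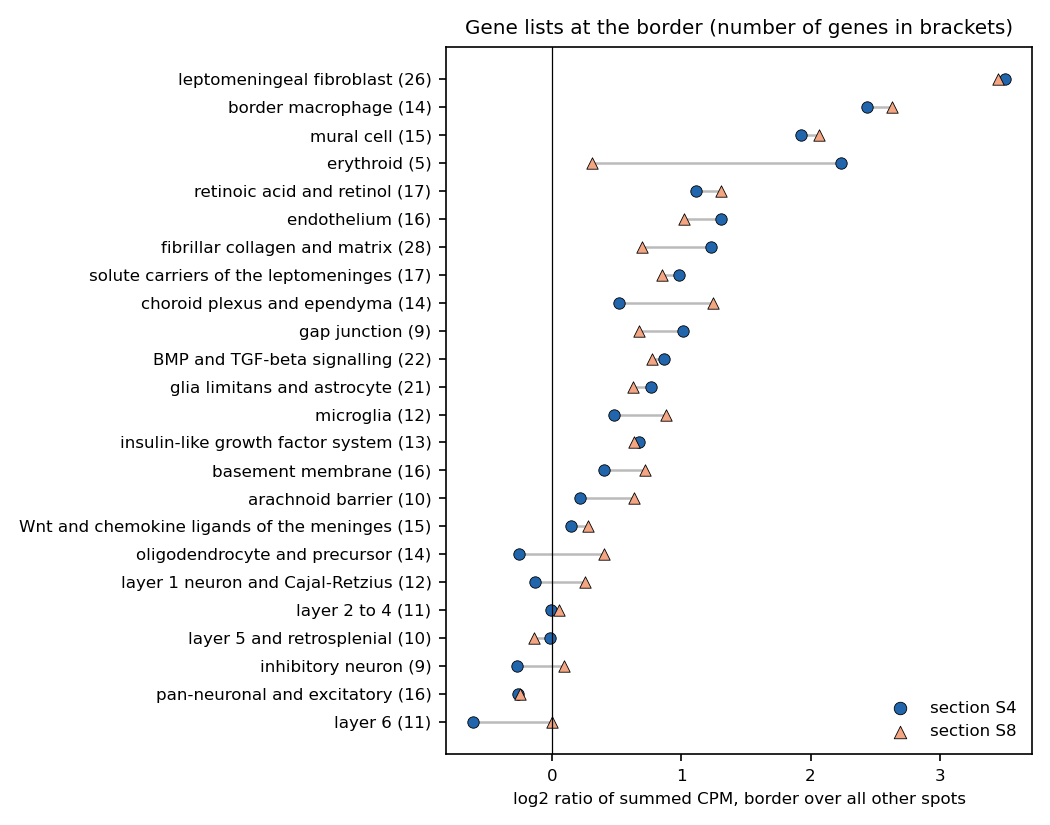
log2 ratio of the summed CPM of each gene list, border over all other spots, in section S4 (circles) and S8 (triangles), sorted by their mean; numbers in brackets count the genes present in the table. The leptomeningeal list lay at 3.51 and 3.45, the erythroid list at 2.24 and 0.31, and the pan-neuronal list below 0 in both sections.

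Retinoic acid is made by the meninges and acts on the cortex below. Of 17 genes of retinoic acid and retinol handling, 14 were tested and 5 were called higher (2 to 5 over the 20 alternatives), with a median of 1.02. Aldh1a2, the enzyme that makes retinoic acid, had 13 and 6 counts at the border and 7 and 2 elsewhere, or 36.6 and 18.3 CPM against 0.866 and 0.330 CPM (log2 fold change 5.48 ± 0.70, edgeR adjusted p = 3.56e-12). Ttr, the retinol and thyroid hormone carrier made by the choroid plexus, stood at 25.3 and 73.4 CPM against 2.48 and 10.2 CPM (log2 fold change 3.02 ± 0.41). Of the 14 choroid plexus and ependyma genes listed, 3 were tested, Ttr and Rarres2 were called higher, and 6 were at 0 in the border spots of both sections. Enpp2, autotaxin, the third of those tested, was the most abundant of the 3 at 120.98 and 165 CPM against 110 and 97.4 CPM and was not called (edgeR adjusted p = 0.129). Rarres2, chemerin, was called from S8 alone: 2 counts in S4 gave 5.63 CPM against 5.82 CPM elsewhere, while S8 had 36.7 CPM against 5.28 CPM.

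Of 13 genes of the insulin-like growth factor system, which does not include the selecting gene Igf2, 12 were tested and 3 were called higher (1 to 3 over the 20 alternatives), Igfbp2, Igfbp5 and Igfbp7. Igfbp7 stood at 59.1 and 58.1 CPM against 21.9 and 25.1 CPM (log2 fold change 1.37 ± 0.29). Igfbp5 stood at 124 and 171 CPM against 69.1 and 74.9 CPM, a log2 fold change of 1.07 ± 0.19, close to the threshold. The list's median was 0.37, and Igfbp6, at 76.0 and 119 CPM against 81.1 and 72.0 CPM, went in different directions in the 2 sections (edgeR adjusted p = 0.455).

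Genes of bone morphogenetic protein (BMP) and TGF-beta signalling were tested in 18 of 22 cases, and 6 were called higher (3 to 7 over the 20 alternatives), with a median of 1.04. The ligand Bmp6 had 11 and 3 border counts, or 30.9 and 9.17 CPM against 2.60 and 0.825 CPM (log2 fold change 3.58 ± 0.67, edgeR adjusted p = 1.42e-05). The ligand Bmp7 had 6 and 7 border counts against 30 and 31 in all other spots (log2 fold change 2.16). Id1 and Id3 encode inhibitors of DNA binding that BMP signals induce. Id3 stood at 166 and 107 CPM against 34.5 and 31.9 CPM (log2 fold change 2.09 ± 0.21, edgeR adjusted p = 5.69e-20), and Id1 at 81.6 and 58.1 CPM against 17.2 and 18.98 CPM (log2 fold change 2.01 ± 0.29). Id4 stood at 129 and 116 CPM against 61.6 and 69.0 CPM, and its log2 fold change of 0.97 lay just under the threshold.

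None of 9 Wnt and chemokine ligand genes tested, of 15 listed, was called in either direction by edgeR or by DESeq2, and 3 had an unadjusted edgeR p under 0.05. With equal weights 1 was called higher. Wnt5a came nearest with 11 border counts, 22.5 and 9.17 CPM against 5.32 and 3.14 CPM (edgeR adjusted p = 0.062). Cxcl12, the chemokine that holds Cajal-Retzius cells at the surface, stood at 61.9 and 64.2 CPM against 36.9 and 45.2 CPM (log2 fold change 0.67, edgeR adjusted p = 0.195). Frzb, a Wnt antagonist, had 2 border counts in S4 and none in S8, where a count of 0 allows up to 9.17 CPM, against 17.4 and 15.02 CPM in the other spots (edgeR adjusted p = 0.0749).

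Some astrocyte genes were higher at the border. All 21 genes of the glia limitans and astrocyte list were tested, 8 were called higher (4 to 8 over the 20 alternatives) and 13 were not called, with a median log2 difference of 0.77. Their summed level was 7830 and 7379 CPM against 4613 and 4785 CPM. Gfap, the intermediate filament of astrocytes, stood at 129 and 168 CPM against 28.2 and 36.0 CPM (log2 fold change 2.26 ± 0.21, edgeR adjusted p = 5.92e-24). Vim, vimentin, a filament of astrocytes, fibroblasts and vessel cells, stood at 146 and 61.2 CPM against 17.1 and 14.9 CPM (log2 fold change 2.76 ± 0.26). Aqp4, the water channel of astrocyte endfeet, stood at 203 and 150 CPM against 51.1 and 51.3 CPM (log2 fold change 1.84 ± 0.18, edgeR adjusted p = 1.64e-20). Counts of Aqp4 were present in 44 of 60 border spots in S4 and in 25 of 60 in S8.

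Both connexins that couple astrocytes were called, and they were the only genes called of 7 tested on the gap junction list of 9, from which the selecting gene Gjb2 was left out. Gjb6 and Gja1 are on the astrocyte list as well. Gjb6 stood at 101 and 97.9 CPM against 40.1 and 41.6 CPM (log2 fold change 1.33 ± 0.23). Gja1 stood at 228 and 190 CPM against 97.3 and 114 CPM, a log2 fold change of 1.04 ± 0.16 that fell under the fold threshold in 10 of the 20 alternatives. Fabp7, a fatty acid binding protein of radial glia and astrocytes, was called with 242 and 94.8 CPM against 93.6 and 65.5 CPM, the larger gap in S4 (log2 fold change 1.12).

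Part of the vessel genes were higher as well. Of 15 mural cell genes, 12 were tested and 8 were called (5 to 8 over the 20 alternatives), with a median of 2.20, and their summed level was 498 and 554 CPM against 131 and 133 CPM. Acta2, the smooth muscle actin of arteries, had 17 and 22 border counts, or 47.8 and 67.3 CPM against 2.85 and 2.31 CPM (log2 fold change 4.48 ± 0.44, edgeR adjusted p = 1.24e-21). Those counts were gathered in few places: 7 of 60 spots in S4 and 10 of 60 in S8 held any, and 5 spots held 88.2% and 77.3% of them. Tagln, a smooth muscle protein, had 3 and 11 border counts against 7 and 10 (log2 fold change 4.02 ± 0.71). Vtn, vitronectin, which pericytes express in brain, was more evenly spread, at 174 and 196 CPM against 36.4 and 39.3 CPM (log2 fold change 2.33 ± 0.19), with counts in 32 and 28 border spots.

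All 16 endothelial genes were tested and 8 were called higher, with a median of 1.33. With DESeq2 2 of them were called, with raw counts as the score 3, and without the section block 4. Cldn5, the tight junction protein of brain vessels, stood at 92.8 and 67.3 CPM against 30.7 and 33.8 CPM (log2 fold change 1.37 ± 0.25). Pecam1, the endothelial adhesion molecule, stood at 42.2 and 24.5 CPM against 5.82 and 7.10 CPM (log2 fold change 2.44 ± 0.45). Cldn5 lost its call under 4 of the 20 alternatives and Pecam1 under none. Ptprb, a phosphatase of endothelial cells, stood at 47.8 and 48.9 CPM against 13.6 and 11.1 CPM (log2 fold change 2.01 ± 0.35).

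Hemoglobin genes passed the test through S4. Hbb-bs stood at 3044 CPM at the border of S4 against 669 CPM elsewhere, but at 908 against 742 CPM in S8. The ratio was near 4.55 in S4 and near 1.22 in S8, and the fitted log2 fold change of 1.34 joins these unlike values. Hba-a1 and Hba-a2 gave the same picture, and with DESeq2 or without the section block the calls of Hba-a1, Hba-a2 and Hbb-bs were lost. Of the Hbb-bs counts at the border, 75.0% in S4 and 75.1% in S8 lay in 5 spots. The spots shared with the section's 60 richest in hemoglobin genes numbered 10 in S4 and 5 in S8, 16.7% and 8.33% of the border. With all hemoglobin-rich spots left out of both groups, 21 of 23 leptomeningeal, 8 of 21 astrocyte, 7 of 13 mural and 7 of 16 endothelial genes tested were called higher. The share called over all 12478 genes tested there was 1.15%. Erythroid genes were still called higher in that setting, 4 of 4 tested, so leaving out those spots did not remove the hemoglobin difference.

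**Figure D3:**
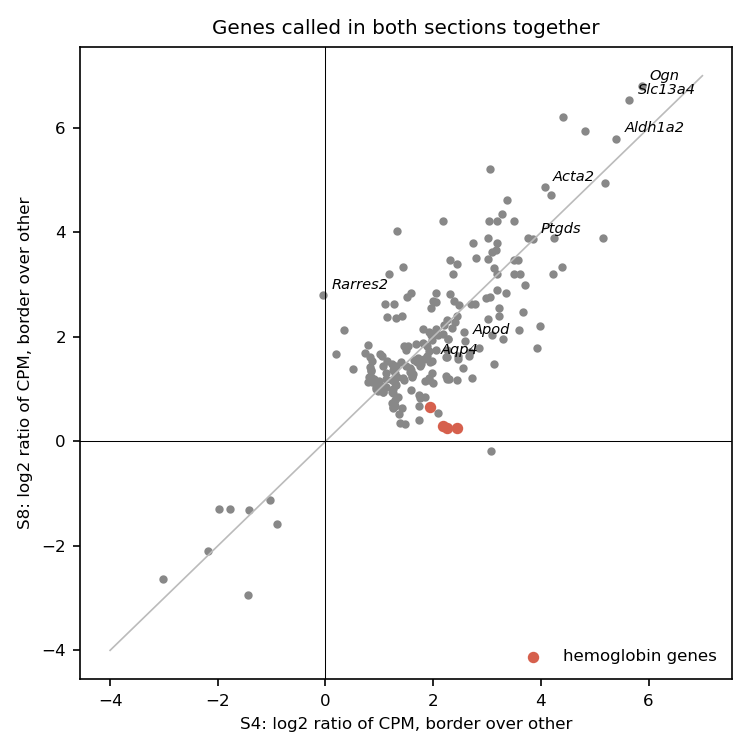
log2 ratio of CPM, border over other, in section S4 (x axis) and S8 (y axis) for the 207 genes called; the diagonal marks equal ratios and red points are the hemoglobin genes. Of the 207 genes, 197 were higher in both sections, 8 lower in both and 2 went in opposite directions, and the 4 hemoglobin genes sit below the diagonal.

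Border macrophage genes, which mark the macrophages that live in the meninges and around vessels, were scarce. Only 5 of the 14 passed the filter, 4 of them were called higher, and 2 had no count at the border. F13a1, at 0.495 and 1.32 CPM in the other spots, could enter only through its border level of 5.63 and 12.2 CPM. Without the filter 2 of the 14 were called higher, against 0.685% of all genes. The list summed to 110 CPM in each section at the border against 20.3 and 17.8 CPM elsewhere. Stab1, a scavenger receptor, had 5 and 9 border counts against 23 and 15 (log2 fold change 2.96 ± 0.62), and Lyz2, lysozyme, 6 and 7 against 35 and 22 (log2 fold change 2.29 ± 0.60). With DESeq2 none of the 4 was called, as was the case with raw counts as the score and with at least 5 selecting counts per spot. Of 12 microglia genes tested, 2 were called: Csf1r, the receptor for colony-stimulating factor, at 61.9 and 85.6 CPM against 34.7 and 36.5 CPM (log2 fold change 1.09), and Cx3cr1 (log2 fold change 1.18). These calls were lost under 8 and 15 of the 20 alternatives.

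Neuronal genes remained abundant at the border. None of 16 genes of the pan-neuronal and excitatory list was called in either direction by edgeR or by DESeq2 (5 had an unadjusted edgeR p under 0.05), with a median log2 difference of -0.23. Their summed level was 8226 and 9110 CPM against 9894 and 10803 CPM. Syt1, a synaptic vesicle protein, stood at 703 and 740 CPM against 963 and 1033 CPM, a log2 fold change of -0.42 ± 0.12 with an edgeR adjusted p of 0.0251 and under the fold threshold. Sst, somatostatin of an inhibitory class that is sparse in layer 1, stood at 197 and 251 CPM against 356 and 424 CPM (log2 fold change -0.76 ± 0.15, edgeR adjusted p = 5.84e-05). Etv1, a transcription factor of layer 5, stood at 67.5 and 70.3 CPM against 146 and 136 CPM, a log2 fold change of -0.99 ± 0.21 just short of the threshold (edgeR adjusted p = 0.00034). Kcnh5, a potassium channel gene, had no count in any border spot, which allows up to 8.44 and 9.17 CPM (3 counts per section), and its 3.84 and 3.47 CPM elsewhere lay below that limit, so no difference was detectable at this depth.

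No gene of the layer 2 to 4, layer 5, inhibitory or oligodendrocyte lists was called by edgeR or by DESeq2, of 11, 10, 9 and 14 tested, and 0, 7, 5 and 3 of these had an unadjusted edgeR p under 0.05. These counts join both directions: on the layer 5 list, Nnat and Slc17a6 lay higher at the border (log2 fold changes 0.55 and 0.87) and Etv1 and Fezf2 lower (-0.99 and -1.27). Under 10 of the 20 alternatives 1 or 2 layer 5 genes were called lower, and under 2 of them an inhibitory gene was. Among 8 layer 1 and Cajal-Retzius genes tested, Ndnf, which marks neurogliaform cells of layer 1, was the single call, at 25.3 and 27.5 CPM against 6.68 and 6.44 CPM (log2 fold change 2.05 ± 0.49, edgeR adjusted p = 0.00226). Calb2, calretinin, was higher in S4 and lower in S8 (59.1 and 33.6 CPM against 34.0 and 37.6 CPM). Osr1, listed for layer 6 and known as a factor of embryonic mesenchyme, was called on 7 border counts. Of the 8 genes called lower, 2 reached 50 CPM in the other spots of both sections: Rsf1, a chromatin remodelling factor, at 28.1 and 18.3 CPM against 52.5 and 55.1 CPM, and Arl6ip4 at 33.8 and 24.5 CPM against 68.9 and 53.1 CPM. Each lost its call under 11 of the 20 alternatives.

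Levels were then followed down the ranking by the selecting genes, as a description. The leptomeningeal list stood at 12316 CPM in ranks 1 to 20 of S4, 4047 CPM in ranks 21 to 40 and 1594 CPM in ranks 41 to 60, and reached 1362 CPM in the 60 spots after those and 499 CPM in the next 60. In S8 the same tiers held 11166, 2117, 1658, 535 and 566 CPM. The remaining spots held 450 CPM in each section. Of the list's counts in the 60 border spots, 66.3% in S4 and 75.6% in S8 lay in the first 20. Without Ptgds the 3 border tiers stood at 2262, 757 and 565 CPM in S4 and at 1837, 645 and 270 CPM in S8, against 176 and 180.8 CPM in the remaining spots. In S4 the spots just outside the selection still stood above the remaining spots.

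The mural list fell from 888 to 362 and 291 CPM over the 3 border tiers of S4 and from 1061 to 404 and 180 CPM in S8, against 122 and 130 CPM in the remaining spots. The astrocyte list fell from 8882 to 6619 CPM and from 9463 to 5733 CPM between ranks 1 to 20 and 41 to 60. The pan-neuronal list went the other way, from 6877 to 9367 CPM in S4 and from 6422 to 11231 CPM in S8. The remaining spots held 10013 and 10775 CPM of this list, so ranks 41 to 60 of S8 stood above them. The erythroid list followed no such order: 7032, 3811 and 6305 CPM in S4 and 1489, 3628 and 586 CPM in S8.

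**Figure D4:**
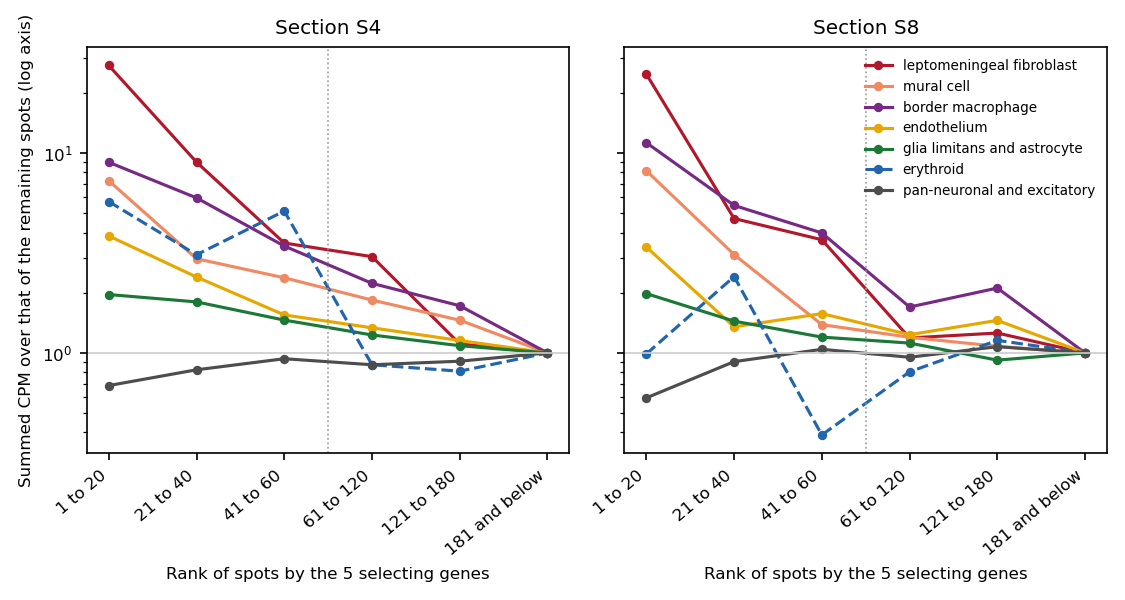
Summed CPM of 7 gene lists over that of the remaining spots (the last tier, log axis) against the rank of the spots by the 5 selecting genes, for section S4 (left) and S8 (right); the dotted line marks the edge of the selection at rank 60. The leptomeningeal list falls from 12316 CPM (S4) and 11166 CPM (S8) in the first tier to 450 CPM in the last, while the erythroid list (dashed) has no steady order.

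Single border spots differed widely. The leptomeningeal list had a median of 3111 CPM per spot in S4, with a range from 0 to 24931 CPM, and of 1826 CPM in S8, from 0 to 28282 CPM. Of the 60 border spots, 36 in S4 and 33 in S8 were also among the section's 60 highest by this list, 60% and 55% (32 and 25 spots, 53.3% and 41.7%, without Ptgds), where a top 60 is 5.88% and 6.34% of the section's spots. The overlap was 29 and 22 spots for the astrocyte list, 19 and 22 for the mural list, 21 and 18 for the border macrophage list, and 1 and 3 for the pan-neuronal list.

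Across the 60 border spots of a section, the leptomeningeal list ran with the score of the selecting genes (Spearman rho 0.66 in S4 and 0.73 in S8) and with the mural list (0.43 and 0.46). These are descriptions, and the lists of a spot share its total. Astrocyte and pan-neuronal lists ran opposite to each other (-0.52 in each section), and the astrocyte list also ran opposite to the spot total (-0.55 and -0.48). With the erythroid list the leptomeningeal list had a rho of 0.05 in S4 and 0.57 in S8. Without Ptgds the leptomeningeal list had a rho of 0.54 and 0.75 with the score, 0.35 and 0.58 with the mural list and 0.11 and 0.44 with the erythroid list.

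**Figure D5:**
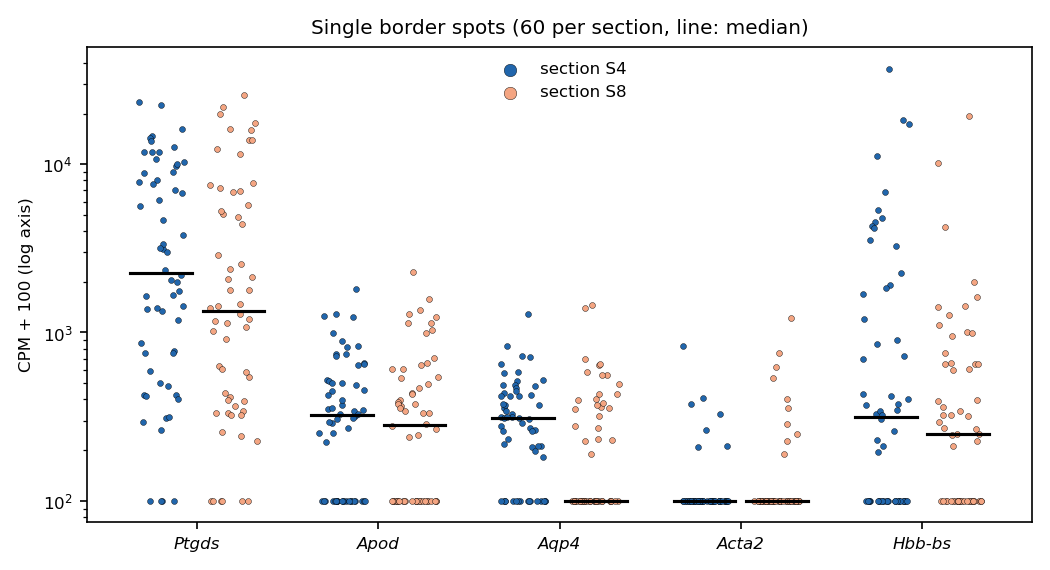
CPM plus 100 (log axis) of 5 genes in each of the 60 border spots of section S4 (blue) and S8 (orange); black lines are medians, and points at 100 have no count. Ptgds was present in 56 and 54 spots, whereas Acta2 appeared in 7 and 10, and Hbb-bs reached 36866 CPM in a single S4 spot.

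Spots rich in hemoglobin transcripts served as a second comparison. They were the 60 spots per section with the highest summed level of Hba-a1, Hba-a2, Hbb-bs, Hbb-bt and Alas2 outside the border, and the hemoglobin and selecting genes were left out of this test. Of 6623 genes tested, 40 were higher at the border (0.604%) and 2 lower (0.0302%). Ptgds stood at 4558 and 4138 CPM at the border and at 693 and 507 CPM in the hemoglobin-rich spots, a log2 fold change of 2.91 ± 0.13. The hemoglobin-rich spots thus held more Ptgds than the 316 and 284 CPM of all other spots.

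By list, 7 of 8 leptomeningeal genes tested, 6 of 18 astrocyte genes and 3 of 5 mural genes were higher at the border than in hemoglobin-rich spots, and none of 8 endothelial genes was called by edgeR or by DESeq2, with 4 at an unadjusted edgeR p under 0.05. With DESeq2 the counts of the first 3 lists were 1, 0 and 0. The endothelial list summed to 695 and 560 CPM at the border against 490 and 396 CPM in the hemoglobin-rich spots. Slc6a20a had 18 and 23 counts against 7 and 2 (log2 fold change 2.62 ± 0.48). Gfap, at 129 and 168 CPM against 47.7 and 51.0 CPM, and Aqp4, at 203 and 150 CPM against 59.6 and 60.7 CPM, were both higher (log2 fold changes of 1.62 and 1.61).

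The 2 genes lower at the border than in hemoglobin-rich spots were neuronal. Npy, neuropeptide Y, stood at 90.03 and 122 CPM against 328 and 167 CPM, a wide gap in S4 and a narrow one in S8 (log2 fold change -1.16 ± 0.22). Etv1 stood at 67.5 and 70.3 CPM against 163 and 124 CPM (log2 fold change -1.01 ± 0.26, edgeR adjusted p = 0.0142). Neither was called with DESeq2, without the section block, or with 30 or 100 spots per section, and with 100 spots Npy turned to a log2 fold change of 0.0351. In this comparison, with DESeq2 only 2 genes were called higher.

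Dissociated neurons gave another view of the same genes, in a different assay with no test across the tables. Of the 199 genes called higher at the border, 108 had a row of the same name in the cell table. That table held 15114 genes, against 32285 in the spot table. The share among all tested genes was not worked out, so the 91 genes without a row are no result about neurons. Ptgds ran from 0 to 285 CPM over the 11 samples with a median of 3.74 CPM, and 159 of 765 cells had a count. Gfap had 11 counts in all 765 cells and Aqp4 had counts in 13 cells. The 9 leptomeningeal genes in that table summed to between 4.61 and 293 CPM per sample, with a median of 10.9 CPM, while the 16 pan-neuronal genes summed to between 15154 and 16960 CPM. Igfbp5, which was called at the border, had counts in 466 of 765 cells with a median of 134 CPM, and Igfbp6, which was not called, in 524 with a median of 182 CPM.

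The promoters of genes higher at the border were read for the forkhead core, since the forkhead genes Foxc1 and Foxd1 were both called higher. The search covered the 250 bases before each start site in the RefSeq promoter table (GRCm38.p6), for TAAACA and its reverse complement TGTTTA. Of the 199 genes, 147 matched a promoter entry by symbol, and 21 of these held a match (14.3%). The share was 9.04% among the 9584 tested genes with an entry and 13.5% among all 27025 genes of the table. Among called genes with an entry, 2 of 18 leptomeningeal (11.1%) and 2 of 6 mural genes (33.3%) held a match. The promoters of Ogn, Slc13a4 and Aldh1a2 held no match. The table holds no entry for Tagln and Myh11. A match is a description of the letters and does not show binding.

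The promoter of Ptgds is shown because it had the highest border level of the genes called higher. Those of Acta2, Igfbp2 and Slc7a11 are shown as 3 of the 6 named genes listed with a match, the others being Dab2, Ly6c1 and Lyz2. Named genes of a chromosome left out of this listing are not among the 6, while the counts above were not limited in this way. All promoters shown are printed 5′ to 3′ in the direction of the gene, with the forkhead core in capitals. Ptgds lies at chr2:25469750-25469999, minus strand and holds no match. Acta2 lies at chr19:34255374-34255623, minus strand, Igfbp2 at chr1:72825137-72825386, plus strand and Slc7a11 at chr3:50443614-50443863, minus strand, with 1 match each, whose first base lies 198, 16 and 232 bases before the start site.
Ptgds: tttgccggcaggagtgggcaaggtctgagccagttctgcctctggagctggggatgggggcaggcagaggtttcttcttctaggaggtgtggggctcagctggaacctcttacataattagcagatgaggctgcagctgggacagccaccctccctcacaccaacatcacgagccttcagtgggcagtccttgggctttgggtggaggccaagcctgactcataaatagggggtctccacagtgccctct
Acta2: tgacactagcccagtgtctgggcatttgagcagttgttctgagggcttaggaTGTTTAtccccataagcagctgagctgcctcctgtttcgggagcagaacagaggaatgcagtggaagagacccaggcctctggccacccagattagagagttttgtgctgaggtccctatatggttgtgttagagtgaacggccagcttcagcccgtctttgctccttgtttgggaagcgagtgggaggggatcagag
Igfbp2: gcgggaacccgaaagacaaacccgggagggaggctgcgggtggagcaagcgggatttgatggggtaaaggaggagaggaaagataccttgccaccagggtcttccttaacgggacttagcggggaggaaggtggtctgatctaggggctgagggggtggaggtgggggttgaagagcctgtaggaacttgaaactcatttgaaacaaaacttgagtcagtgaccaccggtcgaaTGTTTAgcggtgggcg
Slc7a11: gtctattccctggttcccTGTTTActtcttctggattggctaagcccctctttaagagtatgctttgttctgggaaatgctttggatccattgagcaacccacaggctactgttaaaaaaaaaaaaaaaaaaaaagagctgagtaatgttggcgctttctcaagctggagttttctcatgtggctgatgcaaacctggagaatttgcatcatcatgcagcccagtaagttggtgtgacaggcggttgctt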

How the data were processed

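Gene by spot counts of 2 brain sections and gene by cell counts of 11 dissociated samples were used as deposited. Both tables hold whole-number counts, not normalized, and give gene symbols only. Space Ranger, Seurat and the builds mm10 and NCBIM37 are named, with no role, per the submitters' processing notes; aligner settings and filters were not given in the sources used here. The deposited total of each of the 1973 spots equalled the sum of its counts. Whether molecules or reads were counted is not given in the sources used here. Depth sets the precision, and limits for a count of 0 (3 counts) cover counting error only.

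Spots with a total of at least 1000 were ranked per section by the summed CPM of Myoc, Mgp, Igf2, Gjb2 and Slc13a3, the first 60 were summed, and so were the others. Spots are not replicates, so edgeR 4.0.16 (R 4.3.3; filterByExpr, TMM scaling, glmQLFit and glmQLFTest) tested the sums of the 2 sections, with the section as a block because both sums of a section come from the same tissue. The 2 sums of a section were paired by that design. SEs were derived from the F statistic. CPM values are not TMM-scaled. The same test compared the border with hemoglobin-rich spots. Calls needed an adjusted p under 0.05 and a log2 fold change of at least 1. The pipeline was tested on simulated data.

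Named genes were, per comparison, up to 12 higher and 12 lower with the largest called change and at least 50 CPM in the higher group of both sections, plus up to 4 genes with the smallest p from each of 24 lists (predicted, ribosomal, mitochondrial and selecting genes skipped). Dcn, Serping1, Foxc1, Foxd1, Bmp7, Fabp7, Myh11 and the genes under other observations lie outside this rule and were chosen after their values were seen. Some genes are not reported here. The members and lists were chosen with earlier results of these data known. Alternatives were other filters, scaling, DESeq2 1.42.0, no block, other selections, and each section alone. No doublet caller was run on spots. Symbols of the cell table were matched exactly.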

Additional observations from a re-analysis of the deposited data

How the results depend on the processing

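Of the 199 genes called higher, none reversed under any of the 20 alternatives that gave a test; in single sections 2 of them, Rarres2 among them, went the other way. The count fell to 55 with summed raw counts as the score, 59 with DESeq2, 90 with no replicate block, 94 with at least 5 selecting counts per border spot, 109 with a spot total of at least 3000 and 131 without a filter on low counts, and lay between 144 and 213 otherwise. The smaller of these sets were shared with the 199 in 55, 59, 90, 82, 109 and 128 cases. Without a filter, and with at least 5 selecting counts, the median over all genes moved to -0.19 and -0.21 on the log2 scale. The leptomeningeal list held between 15 and 23 called genes. The count of 8 genes called lower became 0 with DESeq2 (where 51 genes had an unadjusted p under 0.05 in that direction), 0 with no replicate block (408) and 0 with raw counts as the score (382). The count of genes called lower was 1 with a total of at least 3000 (0 of the 8 among them), 3 without hemoglobin-rich spots (1 of the 8), 5 without Gjb2 (4), 13 without TMM (8) and 14 with 30 spots (0). The alternative added after the data were seen that used other spots of like totals called 148 genes higher, and the added robust moderation called 199.

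Against hemoglobin-rich spots the count of 40 genes called higher became 2 with DESeq2, 9 with no replicate block and 70 with 30 spots per section, of which 2, 9 and 28 were among the 40. The count of 2 genes lower became 0 with DESeq2 (3 with an unadjusted p under 0.05), 0 with no replicate block (137) and 7 with 30 spots (neither of the 2 among them), and Npy there turned to 0.0351 with 100 spots. The replicate block is the section, and dropping it changed no direction of a called gene. The cause of these differences was not tested.

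Genes that were not called changed sign as follows (log2). With at least 5 selecting counts Cxcl14 went to -0.51, Calb2 to -0.99 and Mbp to -0.0659. With 100 spots Npy went to 0.10 and Calb2 to -0.085. Without Igf2 in the score Npy went to 0.26, Tle4 to 0.0022 and Syt6 to 0.47, and without Myoc Whrn went to -0.0389 and Syt6 to 0.17. Calb2 went to -0.62 with equal weights and to -0.63 without Mgp, Kcnh5 to 0.39 with equal weights. With raw counts as the score Kcnh5 went to 0.034, Whrn to -0.11 and Syt6 to 0.51, and with 30 spots Whrn went to -1.05. Leaving out a section gives the other section's ratio with no count of calls, and without S8 Rarres2, which was called, stood at -0.0479, against 2.80 without S4. Depth limits what low-count genes can show, such as Kcnh5 with no border count.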

Other observations

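Some called genes belong to none of the lists, and they were chosen here after their values were seen. They stand for no gene group. Msx1, a homeobox factor gene, had 5 and 8 counts in the border spots of S4 and S8 against 11 and 6 in all other spots (log2 fold change 3.99), and Zic4, a zinc finger factor gene, had 5 and 4 against 6 and 5 (log2 fold change 4.07). Klf4, a factor of vessel and barrier cells, had 16 and 10 counts against 30 and 42 (log2 fold change 2.92), and Klf2, which blood flow induces in endothelium, stood at 59.1 and 76.5 CPM against 16.1 and 24.8 CPM (log2 fold change 1.78).

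Ifitm3, an interferon-induced membrane protein gene, stood at 39.4 and 36.7 CPM against 10.0 and 9.57 CPM (log2 fold change 2.00), Ifitm2 at 30.9 and 27.5 CPM against 9.41 and 9.08 CPM (log2 fold change 1.71), and Ifitm1 had 6 and 4 border counts. Apoe, the lipid carrier of astrocytes, was the most abundant called gene outside the lists, at 2875 and 2520 CPM against 1364 and 1307 CPM (log2 fold change 1.06).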
